A study of Saccharomyces cerevisiae with 7 samples.

Results

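The genes described here are 31 stress-induced genes of budding yeast, Saccharomyces cerevisiae, that are classed as targets of the transcription factors Msn2 and Msn4 and are neither chaperones nor enzymes of storage carbohydrate. They were chosen by gene symbol in the platform annotation, and each was measured by 1 of the 5498 named probe sets of Affymetrix Yeast Genome 2.0 arrays. Total RNA came from 3 biological replicates of an hmt1Δ strain, in which a KANMX4 cassette replaces HMT1, and from 4 biological replicates of its parent BY4741, a haploid strain of mating type a with the alleles his3Δ1, leu2Δ0, met15Δ0 and ura3Δ0, which both strains share. HMT1 encodes a type I protein arginine methyltransferase, which modifies many RNA-binding proteins. The labels list a rich medium, a phosphate-replete and a phosphate-depleted medium for the study and do not tie these arrays to one of them, and they give no growth stage or cell density. The labels call the cultures biological replicates, with no statement on batches or days. All values are log2 expression as deposited, so a difference of 1 is a doubling, and all differences are hmt1Δ minus wild type.

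Msn2 and Msn4 are related zinc finger activators that bind the stress response element in promoters. Protein kinase A, active while glucose is plentiful, keeps them in the cytoplasm, and heat, osmotic or oxidative stress, starvation and slow growth let them enter the nucleus. Their targets make up much of the induced part of the environmental stress response, in which genes of antioxidant defence, carbon metabolism and protein turnover go up while genes of ribosome synthesis go down. Several targets are isozymes whose sister gene serves the same reaction in growing cells.

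HMT1 was checked first. It was at 5.03, 4.50 and 4.77 in hmt1Δ replicates 1 to 3, against 12.10, 11.76, 11.58 and 11.90 in wild-type replicates 1 to 4. It fell by 7.07 (SE 0.15, limma adjusted p = 4.89e-07), which is at least 104-fold lower against the brightest of 23 control probe sets without a yeast target (5.13). An exact two-sided permutation test gave p = 0.0286, the smallest that 35 splits allow. Median log2 expression was between 9.95 and 9.98 on the 7 arrays. With 3 and 4 arrays per strain, precision is limited. In bulk RNA, fewer cells expressing a gene and less RNA per cell cannot be told apart.

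None of the 31 stress genes passed the comparison of the strains. In 27 of them the hmt1Δ mean was higher and in 4 it was lower, with a median difference of 0.11, while 52.5% of all probe sets tested were higher, with a median of 0.0065. Limma adjusted p lay between 0.700 and 0.998 for the 31 genes, and 0.2% of all probe sets were called at an adjusted p under 0.05. At an unadjusted p under 0.05 there was 1 gene of the 31, DCS2, where 6.64% of all probe sets had such a p. In 0 of the 31 genes were all hmt1Δ arrays above or all below the wild-type arrays, a separation found in 7.64% of all probe sets. In 31 of 31 genes the wild-type replicates differed among themselves by more than the strains did, as in 95.4% of all probe sets. The differences ranged from -0.23 for TKL2 to 0.82 for SOL4.

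The count of 27 depended on which arrays were kept, and it was 20 to 29 when arrays were left out singly. Without hmt1Δ replicate 3 it was 29, and the median difference was 0.26. Leaving out wild-type replicate 4 gave 29 and 0.21, and leaving out wild-type replicate 3 gave 28 and 0.19. Leaving out hmt1Δ replicate 1 gave 24 and 0.12, and leaving out wild-type replicate 2 gave 25 and 0.14. Without hmt1Δ replicate 2, 22 of the 31 genes were higher and the median difference was 0.076. Without wild-type replicate 1, 20 of the 31 genes were higher and the median difference was 0.026, beside 2999 of the 5498 probe sets higher and a median of 0.012. That array held the lowest of the 7 values in 24 of the 31 genes (77.4%, against 16.8% of all probe sets) and the highest value in 0 of them. The highest value lay in hmt1Δ replicate 2 for 15 genes (48.4%, against 11.6% of all probe sets), in wild-type replicate 3 for 8, in wild-type replicate 4 for 6 and in hmt1Δ replicate 1 for 2.

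**Figure D1:**
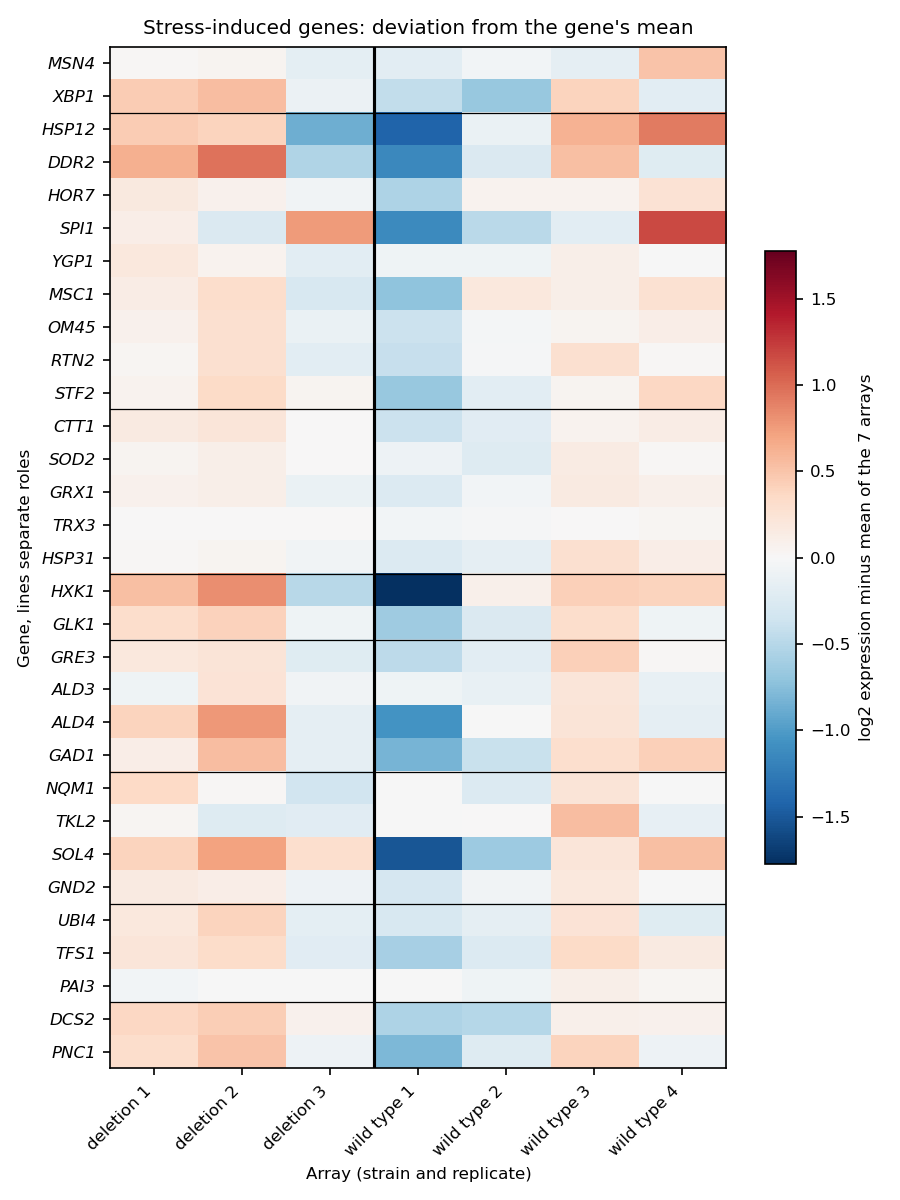
Deviation of each of the 31 genes (rows, grouped by role) from its mean over the 7 arrays (columns, hmt1Δ left of the line), in log2 units, red higher and blue lower. Wild-type replicate 1 is lowest in 24 rows, and hmt1Δ replicate 2 is highest in 15.

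Of the regulators on the list, MSN4, itself a gene of one of the activators, was at 8.77, 8.81 and 8.59 in hmt1Δ replicates 1 to 3, against 8.57, 8.70, 8.59 and 9.26 in wild-type replicates 1 to 4. All hmt1Δ values lay inside the wild-type range, and wild-type replicate 4 stood above the rest. The difference was -0.06 (SE 0.17, limma adjusted p = 0.941). XBP1, a transcriptional repressor made under stress, had 6.90, 7.0 and 6.34 in hmt1Δ, against 6.01, 5.78, 6.85 and 6.26 in the wild type. Its hmt1Δ mean was 0.52 higher (SE 0.26, limma adjusted p = 0.796), and wild-type replicate 3 overlapped the hmt1Δ arrays.

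Among the 9 genes of membrane, surface and hydrophilic proteins, 8 had a higher hmt1Δ mean, with a median difference of 0.11. Without wild-type replicate 1, which is lowest in 8 of them, 5 were higher and the median was 0.013. The spread between replicates was wide in several of them. HSP12, a small hydrophilic protein that associates with membranes, was at 11.09, 11.04 and 9.78 in hmt1Δ replicates 1 to 3, against 9.23, 10.53, 11.26 and 11.57 in wild-type replicates 1 to 4. The lowest and the highest of the 7 values were both wild type, 5.07-fold apart, and the hmt1Δ arrays lay between them. The difference was -0.0098 (SE 0.57, limma adjusted p = 0.996), and its 95% interval from -1.34 to 1.32 does not exclude a doubling or a halving. It became -0.48 (SE 0.41) without wild-type replicate 1 and 0.42 without hmt1Δ replicate 3.

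DDR2, a small protein induced by DNA damage and many other stresses, was at 10.03, 10.37 and 8.87 in hmt1Δ, against 8.26, 9.14, 9.94 and 9.19 in the wild type. The first 2 hmt1Δ values exceeded all wild-type values, while hmt1Δ replicate 3 lay below 3 of the 4 wild-type arrays. The difference was 0.62 (SE 0.45, limma adjusted p = 0.840), and 0.33 (SE 0.41) without wild-type replicate 1. Its paralog HOR7, named for its response to high osmolarity, had 13.43, 13.33 and 13.20 in hmt1Δ, against 12.70, 13.31, 13.31 and 13.51 in the wild type. Apart from wild-type replicate 1, the 6 arrays of HOR7 were close to each other, and the difference over all arrays was 0.11 (SE 0.18, limma adjusted p = 0.897).

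SPI1, a cell wall protein attached by a GPI anchor, did not follow the usual order of the arrays. It was at 9.25, 8.87 and 9.89 in hmt1Δ, against 8.01, 8.65, 8.94 and 10.30 in the wild type. Replicate 3 was the highest hmt1Δ array for SPI1, although hmt1Δ replicate 2 exceeded replicate 3 in 27 of the 31 genes. The difference of 0.36 (SE 0.50, limma adjusted p = 0.881) was smaller than the wild-type SD of 0.97.

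STF2, a hydrophilin of drying cells, had 10.58, 10.86 and 10.57 in hmt1Δ, against 9.85, 10.34, 10.57 and 10.89 in the wild type, and the difference was 0.26 (SE 0.22). MSC1, OM45 of the mitochondrial outer membrane and RTN2, a reticulon of the endoplasmic reticulum, had differences of 0.09 (SE 0.25), 0.15 (SE 0.14) and 0.08 (SE 0.17). In all 3, wild-type replicate 1 was the lowest array. YGP1, a secreted glycoprotein, was 12.26 ± 0.19 in hmt1Δ and 12.23 ± 0.08 in the wild type (SD, n = 3 and 4), with hmt1Δ replicate 3 lowest. Its SD was below the median of all probe sets in the wild type (25.3 percentile) and above that median in hmt1Δ (0.071).

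**Figure D2:**
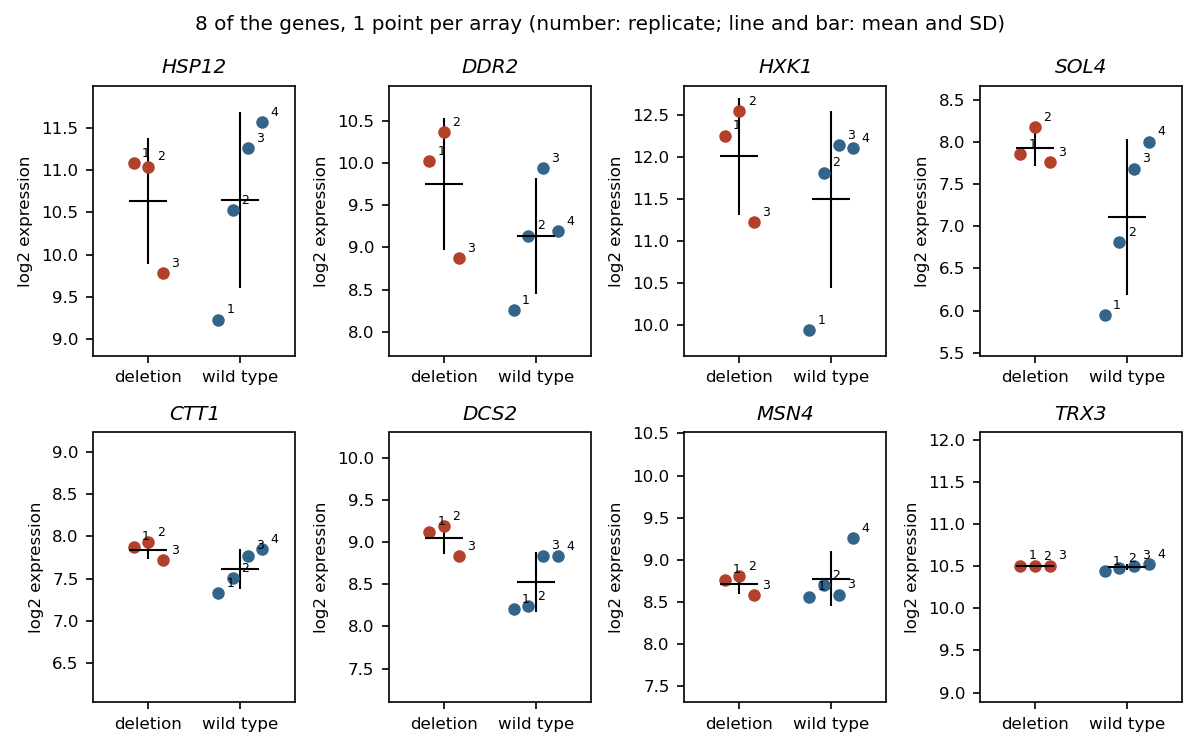
Log2 expression of 8 of the genes in each array (points, numbered by replicate) with the mean (line) and SD (bar) of hmt1Δ (n = 3) and wild type (n = 4); all panels span the same number of log2 units. HSP12, HXK1 and SOL4 spread over more than 2 log2 units in the wild type, and TRX3 over 0.079.

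The 5 genes of redox defence all had a higher hmt1Δ mean, but by a median of 0.036 and with none past the test. Without wild-type replicate 1, 3 of them were higher and the median was 0.000465. CTT1, the cytosolic catalase, had 7.88, 7.94 and 7.72 in hmt1Δ replicates 1 to 3, against 7.33, 7.51, 7.77 and 7.85 in wild-type replicates 1 to 4. Wild-type replicates 3 and 4 lay above hmt1Δ replicate 3, and the difference was 0.23 (SE 0.13, limma adjusted p = 0.803). SOD2, the manganese superoxide dismutase of mitochondria, was 12.01 ± 0.05 in hmt1Δ and 11.92 ± 0.16 in the wild type (SD, n = 3 and 4). GRX1, a glutaredoxin, was 0.036 higher (SE 0.11), and HSP31, a methylglyoxal-detoxifying protein of the DJ-1 family, was 0.0011 higher (SE 0.13, 95% interval from -0.29 to 0.29).

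TRX3, the mitochondrial thioredoxin, was the steadiest of the 31 genes in both strains. It read 10.50 on each of the 3 hmt1Δ arrays, against 10.44 to 10.52 in the wild type. The 95% interval of its difference was from -0.10 to 0.13. In wild-type spread it stood at the 4.98 percentile of all probe sets.

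Both hexose-phosphorylating enzymes on the list had a higher hmt1Δ mean. HXK1, hexokinase I, whose gene is repressed while glucose is plentiful, was at 12.25, 12.54 and 11.22 in hmt1Δ, against 9.94, 11.81, 12.14 and 12.10 in the wild type. Wild-type replicate 1 lay far below the other wild-type arrays. The gap between wild-type replicates 3 and 1 was 2.20, a 4.58-fold difference and the largest excess of replicate 3 over replicate 1 among the 5498 probe sets. The strain difference was 0.51 (SE 0.57, limma adjusted p = 0.856) with all arrays and -0.014 (SE 0.32) without wild-type replicate 1. GLK1, the glucokinase, had 12.66, 12.77 and 12.28 in hmt1Δ, against 11.72, 12.10, 12.66 and 12.28 in the wild type, and a difference of 0.38 (SE 0.22, limma adjusted p = 0.803).

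The 4 enzymes of aldehydes, ketones and glutamate had differences from 0.07 to 0.59. ALD4, the mitochondrial aldehyde dehydrogenase, was at 11.31, 11.68 and 10.75 in hmt1Δ, against 9.85, 10.90, 11.13 and 10.74 in the wild type. Replicate 3 of hmt1Δ lay among the wild-type values, while hmt1Δ replicates 1 and 2 exceeded them all. The difference was 0.59 (SE 0.33, limma adjusted p = 0.803), and 0.32 (SE 0.23) without wild-type replicate 1. GAD1, glutamate decarboxylase, had 9.86, 10.29 and 9.59 in hmt1Δ, against 8.93, 9.35, 10.04 and 10.17 in the wild type, and a difference of 0.29 (SE 0.31). GRE3, an aldose reductase, was 0.11 higher (SE 0.21), and all its hmt1Δ values lay inside the wild-type range. ALD3, a cytosolic aldehyde dehydrogenase, was 6.65 ± 0.18 in hmt1Δ and 6.59 ± 0.17 in the wild type (SD, n = 3 and 4).

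SOL4, a phosphogluconolactonase of the pentose phosphate pathway, had the largest difference of the 31 genes. It was at 7.86, 8.18 and 7.76 in hmt1Δ replicates 1 to 3, against 5.95, 6.81, 7.68 and 8.0 in wild-type replicates 1 to 4. The hmt1Δ values lay close together, at the level of wild-type replicates 3 and 4, and the wild type covered a 4.15-fold range. The difference of 0.82 (SE 0.45) is 1.76-fold and did not pass (limma adjusted p = 0.803), and it was 0.43 (SE 0.30) without wild-type replicate 1. The other isozymes of the pathway had smaller differences. TKL2, a transketolase, was 0.23 below the wild type (SE 0.16, limma adjusted p = 0.840), with wild-type replicate 3 at 6.82 and the other 6 arrays between 6.04 and 6.31. GND2, a phosphogluconate dehydrogenase, was 0.10 higher (SE 0.12), and NQM1, a transaldolase, 0.021 higher (SE 0.17).

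Of the protein turnover genes, UBI4, which encodes polyubiquitin, was at 11.71, 11.93 and 11.36 in hmt1Δ, against 11.24, 11.36, 11.78 and 11.31 in the wild type. Wild-type replicate 3 lay within the hmt1Δ values, and the difference was 0.24 (SE 0.17, limma adjusted p = 0.835). TFS1, an inhibitor of carboxypeptidase Y, was 0.19 higher (SE 0.23). PAI3, the inhibitor of proteinase A, read 4.83 to 4.87 in hmt1Δ and 4.80 to 4.98 in the wild type, at or below the limit of the control probe sets, so its values give no difference. It was the only one of the 31 genes at that level.

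DCS2 and PNC1 act on nucleotides. DCS2, a paralog and regulator of the scavenger decapping enzyme Dcs1, had the smallest limma p of the 31 genes. It was at 9.13, 9.19 and 8.84 in hmt1Δ, against 8.21, 8.24, 8.84 and 8.83 in the wild type. Replicates 1 and 2 of hmt1Δ were above all wild-type arrays, and hmt1Δ replicate 3 was level with wild-type replicates 3 and 4. The difference was 0.52 (SE 0.19, 95% interval from 0.08 to 0.96, limma adjusted p = 0.700), and 0.41 to 0.63 when each array was left out in turn. PNC1, the nicotinamidase that clears the Sir2 inhibitor nicotinamide, had 12.04, 12.24 and 11.64 in hmt1Δ, against 10.93, 11.50, 12.13 and 11.64 in the wild type, and a difference of 0.43 (SE 0.27, limma adjusted p = 0.812).

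**Figure D3:**
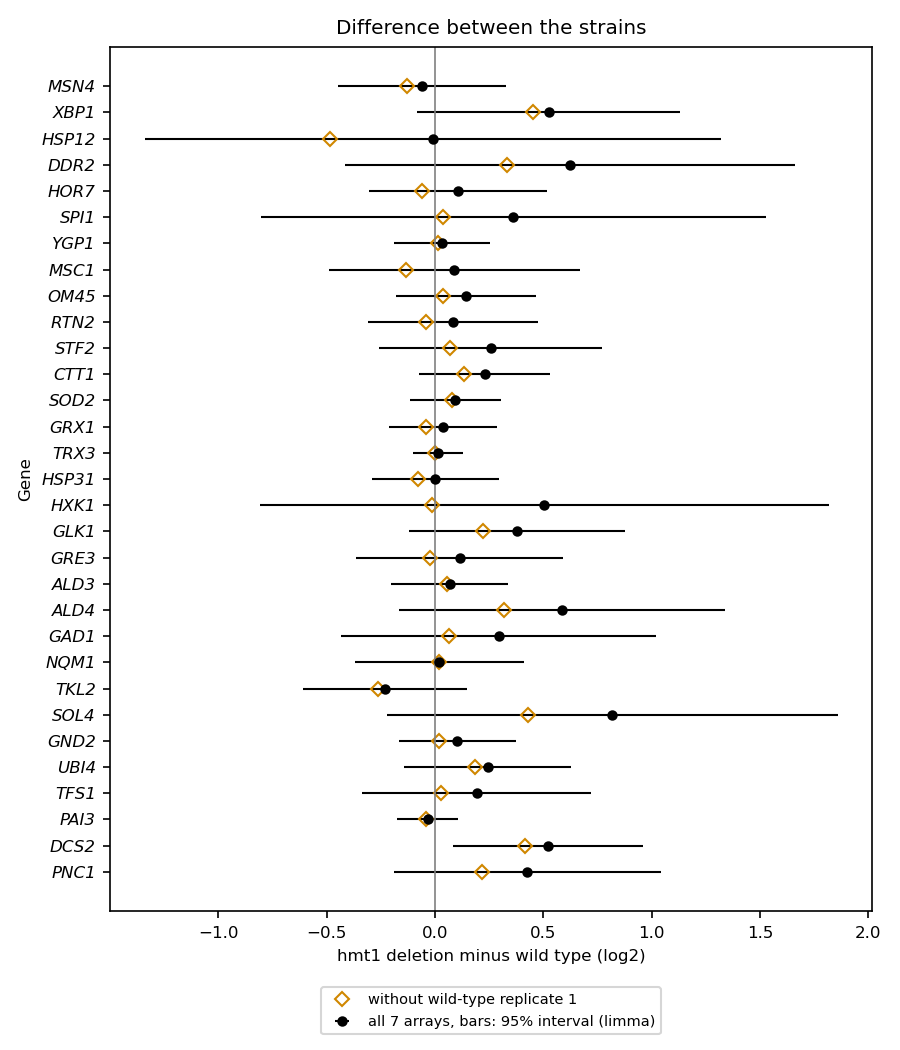
Difference of hmt1Δ minus wild type (log2, horizontal axis) for the 31 genes with its 95% interval from limma (black), and without wild-type replicate 1 (orange diamonds). The DCS2 interval alone leaves out 0 before adjustment, and the 27 positive differences became 20 without that replicate.

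Without wild-type replicate 1, the difference was 0.45 for XBP1, 0.07 for STF2, 0.04 for SPI1, 0.13 for CTT1, 0.22 for GLK1, 0.06 for GAD1, 0.18 for UBI4 and 0.22 for PNC1. It was 0.026 for TFS1, 0.038 for OM45, 0.019 for GND2 and 0.013 for YGP1, each less than with all arrays. A decrease must follow wherever the array left out lies below the wild-type mean. The difference changed sign in 7 genes, to -0.061 for HOR7, -0.13 for MSC1, -0.042 for RTN2, -0.042 for GRX1, -0.080 for HSP31, -0.014 for HXK1 and -0.021 for GRE3. TKL2 was at -0.26 and MSN4 at -0.13 on the same 6 arrays.

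The precision of these differences varied from gene to gene. The 95% interval lay within 1 log2 unit on either side of 0 for 22 of the 31 genes (71.0%, against 98.2% of all probe sets) and within 0.5 for 12 of them (38.7%, against 87.5%). In the remaining 9, among them HSP12, HXK1, SPI1, DDR2 and SOL4, a doubling was not excluded. All hmt1Δ values lay inside the wild-type range for 13 genes (41.9%, against 40.2% of all probe sets).

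Replicates of the same strain differed widely in these genes. The median SD was 0.22 over the hmt1Δ arrays and 0.35 over the wild-type arrays, against 0.071 and 0.13 for all probe sets. In 19 of the 31 genes (61.3%) the wild-type SD exceeded the 90th percentile of all probe sets, and 10 genes (32.3%, against 2.56%) spanned more than a doubling in the wild type. Wild-type replicate 3 was above wild-type replicate 1 in 31 of 31 genes (54.2% of all probe sets), by 0.023 to 2.20 with a median of 0.63. In hmt1Δ, replicate 2 was above replicate 3 in 27 of 31 genes (45.1% of all probe sets); the exceptions were SPI1, TKL2, TRX3 and PAI3. The median deviation of the 31 genes from their means was 0.17, 0.28 and -0.11 in hmt1Δ replicates 1 to 3, against -0.44, -0.16, 0.22 and 0.03 in wild-type replicates 1 to 4.

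The genes lie on 13 chromosomes, and 2 of them, GAD1 and HOR7, are near neighbours with GTO3 between them in the RefSeq gene table. Wild-type replicate 1 was the lowest array for at least 1 gene of each role. The 7 genes that were lowest elsewhere were YGP1 and NQM1 (hmt1Δ replicate 3), TKL2 (hmt1Δ replicate 2), XBP1, SOD2 and PAI3 (wild-type replicate 2) and ALD3 (wild-type replicate 4).

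The sister genes of 15 of the 31 give a comparison within the same arrays. The pairs were formed after the values had been seen, and they are a description. In 11 of the 15 pairs the stress-induced gene spanned the wider range in the wild type, and in 10 of these also in hmt1Δ. HXK1 ranged over 1.31 in hmt1Δ and 2.20 in the wild type, and HXK2, the main hexokinase of glucose-grown cells, over 0.029 and 0.15. HXK2, TKL1 and SED1 are bright probe sets, with means of 13.66, 13.55 and 13.36. So are SOD1, TAL1, RTN1 and GND1, the sisters of SOD2, NQM1, RTN2 and GND2, with means of 13.68, 13.26, 13.24 and 13.02. All of these belong to the 11 pairs in which the stress-induced gene was wider. Bright probe sets on arrays can respond less than dim ones, and whether that narrowed these ranges was not tested. SOL4 ranged over 0.42 and 2.05 in the 2 strains, and SOL3 over 0.016 and 0.28. SPI1 ranged over 1.01 and 2.30, and its relative SED1, a major cell wall protein, over 0.21 and 0.36. For TKL2 and TKL1 the ranges in the wild type were 0.70 and 0.20, and for MSN4 and MSN2 they were 0.69 and 0.17.

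In the other 4 pairs the sister gene ranged as widely or more widely. GLK1 and EMI2, a relative of glucokinase, both spanned 0.94 in the wild type. STF2 spanned 1.04 and TMA10 2.03. ALD3 spanned 0.36 and ALD2 0.48, and CTT1 spanned 0.52 and the peroxisomal catalase gene CTA1 0.54. Wild-type replicate 3 minus replicate 1 was 0.44 for CTT1 and -0.54 for CTA1. None of the sister genes passed the strain comparison (limma adjusted p from 0.656 to 0.990), and DCS1 was 0.33 higher (SE 0.11, limma adjusted p = 0.656), beside 0.52 for DCS2.

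**Figure D4:**
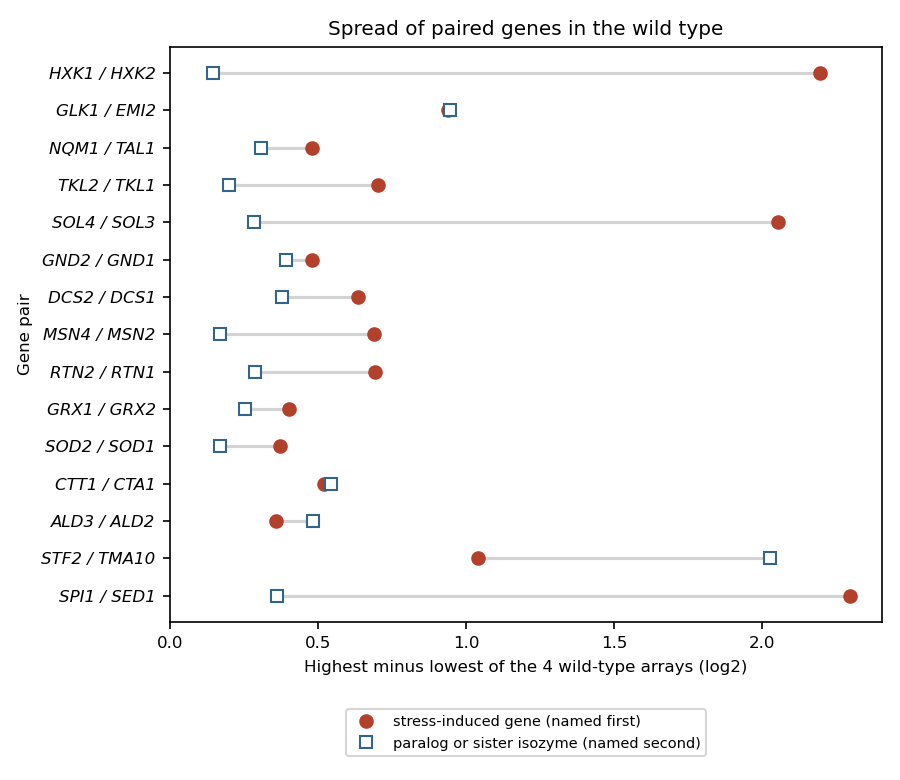
Range of log2 expression over the 4 wild-type arrays (horizontal axis) for 15 stress-induced genes (filled circles) and a sister gene of each (open squares). HXK1, SOL4 and SPI1 lie farther from their sister genes HXK2, SOL3 and SED1 than any other gene that lies to the right of its sister, and TMA10 lies to the right of STF2.

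A list of 29 measured genes holds MSN2 and genes of the kinase and nutrient signalling around Msn2 and Msn4. Of these, 0 passed the test, 20 had a higher hmt1Δ mean, 1 had an unadjusted limma p under 0.05, and the median difference was 0.041. MSN2 was 0.11 higher (SE 0.07). TPK2, a catalytic subunit of protein kinase A, was at 10.45, 10.57 and 10.35 in hmt1Δ, against 10.02, 9.93, 10.46 and 10.06 in the wild type. It was 0.34 higher (SE 0.13, limma adjusted p = 0.719), and wild-type replicate 3 reached the hmt1Δ values. BMH2, a 14-3-3 protein, was 0.13 higher (SE 0.07, limma adjusted p = 0.802). The signalling genes had a median wild-type SD of 0.11, against 0.35 for the 31 stress-induced genes.

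A further 23 measured stress-induced genes were set beside the 31. Of these, 0 passed the test (1 at an unadjusted limma p under 0.05), 19 had a higher hmt1Δ mean with a median of 0.17, and without wild-type replicate 1 there were 16 with a median of 0.056. An exception was YRO2, a plasma membrane protein, at 10.04, 9.91 and 10.30 in hmt1Δ, against 10.64, 10.38, 10.88 and 11.09 in the wild type. All hmt1Δ values were below all wild-type values, and the difference of -0.66 (SE 0.17) did not pass (limma adjusted p = 0.410). The groups separated in 1 of these 23 genes (4.35%), against 7.64% of all probe sets. PHM8, a phosphatase of nucleotides and lysophosphatidic acid, was at -0.35 (SE 0.16, limma adjusted p = 0.784). Among 7 chaperones the median difference was 0.39, with HSP42 at 0.76 (SE 0.35) and HSP78 at 0.69 (SE 0.29), and it was 0.24 without wild-type replicate 1. Among 10 storage carbohydrate genes it was 0.38, with GSY1 at 0.77 (SE 0.24) and TPS2 at 0.43 (SE 0.16), and it was 0.28 without that array. All hmt1Δ values of GSY1 and TPS2 were above all wild-type values. The groups separated in 2 of the 10 storage genes (20%) and 0 of the 7 chaperones, against 7.64% of all probe sets. None of these chaperone and storage genes passed the test. An unadjusted limma p under 0.05 was found in 1 chaperone (14.3%) and 3 storage genes (30%), against 6.64% of all probe sets.

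**Figure D5:**
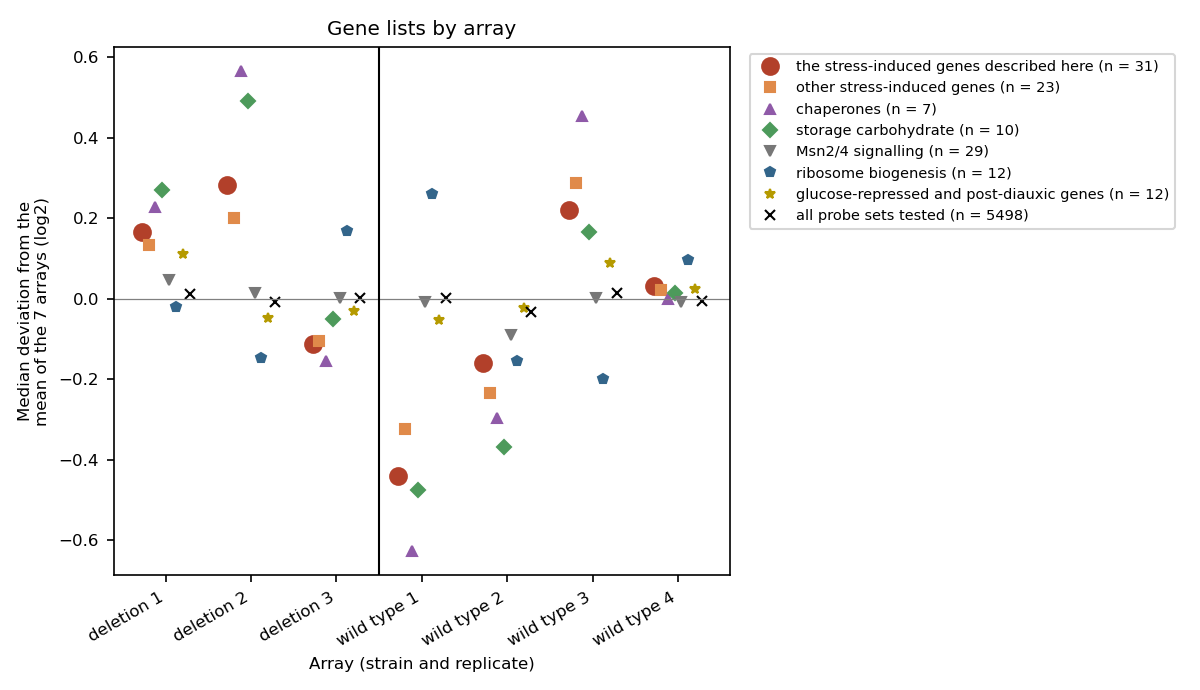
Median deviation (log2, vertical axis) of gene lists from their mean over the 7 arrays, by array (horizontal axis, hmt1Δ left of the line). The 31 genes, the other stress-induced genes, chaperones and storage carbohydrate genes are low in wild-type replicate 1 and high in hmt1Δ replicate 2 and wild-type replicate 3, and the 12 ribosome biogenesis genes run the other way on those arrays.

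Several measures were set beside the order of the arrays, and their part in it was not tested. Ribosome biogenesis genes, which yeast makes in proportion to its growth, had median deviations of -0.022, -0.15 and 0.17 in hmt1Δ replicates 1 to 3, against 0.26, -0.15, -0.20 and 0.10 in wild-type replicates 1 to 4. In 0 of 12 was wild-type replicate 3 above replicate 1, and in 7 of 12 wild-type replicate 1 was the highest of all arrays. Between the strains 0 of them passed the test (0 at an unadjusted limma p under 0.05), with a median of 0.0021, NSR1 at -0.14 (SE 0.19) and UTP4 at -0.09 (SE 0.14). The 12 measured genes that glucose represses and that come on after its exhaustion had median deviations of 0.11, -0.047 and -0.030 in hmt1Δ replicates 1 to 3, against -0.054, -0.024, 0.088 and 0.025 in wild-type replicates 1 to 4. Wild-type replicate 1 was the lowest of all arrays in 6 of these 12 (50%, against 16.8% of all probe sets). Wild-type replicate 3 was above it in 9 of 12 (75%, against 54.2%), and hmt1Δ replicate 2 was the highest array in 0 of 12. MLS1, SFC1 and POX1, which are among the 6, had means of 5.12, 4.22 and 4.63 over the 7 arrays. These and FBP1 of the same list (4.69) lie below the brightest control probe set (5.13), so their order of arrays is uncertain. In that list ICL1, isocitrate lyase, was at -0.31 (SE 0.11) and CAT2, carnitine acetyltransferase, at 0.18 (SE 0.06), with 0 of 12 past the test and 2 at an unadjusted limma p under 0.05.

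Markers of other cell types were compared too. Alpha-specific genes had 0 of 4 past the test (0 at an unadjusted limma p under 0.05) and a median of -0.015. SAG1 was at -0.18 (SE 0.09), with all hmt1Δ values below all wild-type values. Such a separation was found in 1 of the 4 (25%), against 7.64% of all probe sets. MF(ALPHA)1, the gene of the alpha pheromone, read 4.11 to 4.14 in hmt1Δ and 3.95 to 4.12 in the wild type. These values are within the range of the control probe sets. SAG1, STE3 and MF(ALPHA)2 had means of 8.93, 6.88 and 5.95, above the brightest control probe set (5.13). Genes of meiosis and spores had 0 of 10 past the test (0 at an unadjusted limma p under 0.05) and a median of -0.0020, with IME1 at 0.16 (SE 0.08) and DIT1 at 0.10 (SE 0.09). The difference between 3′ and 5′ actin control probe sets, a measure of RNA integrity, was 0.21 to 0.24 in hmt1Δ and 0.23 to 0.30 in the wild type, with 0.23 in wild-type replicate 1. The same measure was 1.11 to 1.33 in hmt1Δ and 1.04 to 1.29 in the wild type for the YER022w control, and 1.99 to 2.07 in hmt1Δ and 1.92 to 2.08 in the wild type for the YER148w control. Wild-type replicate 1 was the lowest of the 7 arrays in both of these. The 5 probe sets labelled J01347 read at most 4.44 in wild-type replicates 1 and 3 and at least 6.16 on the other 5 arrays. The brightest of them read 4.24 and 4.44 in wild-type replicates 1 and 3, and 12.29 to 12.59 on the other 5 arrays. Wild-type replicates 1 and 3 thus differ here from the other wild-type arrays and from hmt1Δ, and any tie to the stress genes was not tested. By median, the stress genes were lowest in wild-type replicate 1 and highest in wild-type replicate 3 among the wild-type arrays. Against wild-type replicates 2 and 4 alone 25 of the 31 genes were higher with a median of 0.09, and against replicates 1 and 3 alone 26 were higher with a median of 0.25.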

How the data were processed

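The values the authors deposited are log2 signals per probe set of 7 arrays; RMA and affy 1.52.0 are named in the submitters' processing notes. For the authors' own filter and test, no description was used here. RMA gives arrays a common distribution. Of 5900 probe sets, 5498 were assigned to 1 gene through the platform annotation (12 symbols updated from RefSeq R64), and 402 unnamed ones were left out. Each of the 31 genes has 1 probe set, and 20 lie above the 25th percentile of all means (8.91). Strains were compared by the moderated test of limma 3.58.1 (R 4.3.3), two-sided. Benjamini-Hochberg adjustment covered all 5498 probe sets, and calls needed an adjusted p under 0.05. SE and 95% intervals come from that fit, which was tested on simulated data.

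The genes and lists were chosen with earlier results of these data known. All 31 genes are named, with HMT1, sister genes and the 2 genes of smallest p in each further list. The alternatives left out single arrays, dim probe sets or pairs of wild-type arrays, changed the scaling (median centring, a second quantile step) or the variance model (trend, robust, array weights), added a replicate block, or kept unnamed probe sets. Sequences were not used here, and gene coordinates served only to count chromosomes and to find neighbouring genes. Figures were drawn with matplotlib 3.10.9.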

Additional observations from a re-analysis of the deposited data

Results flagged for a closer look

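HXK1 in wild-type replicate 1, at 9.94, lay apart from the other 3 wild-type arrays. Its gap to the nearest of them was 0.852 of the whole wild-type range, above Dixon's 95% limit for 4 values. It was 1 of 32 genes examined (the 31 and HMT1), and 9.21% of all probe sets exceeded the limit. Chance alone puts about 1 in 20 groups above it.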

How the results depend on the processing

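In limma's fits, 0 of the 31 genes were called under each of the 17 alternatives, where 0 to 5 had an unadjusted p under 0.05 (1 with all arrays and default settings). The number of genes higher in hmt1Δ was 20 to 29 when arrays were left out singly and 18 with array weights, and the median difference was 0.026 to 0.26 over all alternatives. HMT1 was called under every alternative that kept it (-7.20 to -6.93 with single arrays left out), and the filter on dim probe sets removed it. Probe sets called, 11 in all, numbered 1 to 9 with single arrays left out: 1 without any one hmt1Δ array or wild-type replicate 4, and 3 without wild-type replicate 3. They numbered 6 without dim probe sets, 59 with array weights, and 7 against wild-type replicates 1 and 3 alone.

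Same-numbered arrays of the strains had correlations of deviations of -0.03, 0.17 and -0.51. The labels do not pair these arrays, and the correlations cannot show whether they shared a day or batch. The fit with the replicate block also leaves out wild-type replicate 4, which has no partner. It called 1 probe set and 0 of the 31 genes, and MSN4 was at 0.10 and HSP12 at 0.30, the same differences as without that array and no block.

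Of 516 differences of the 31 genes under alternatives, 43 changed sign, in 18 genes, and the cause was not tested. With single arrays left out the ranges were -0.036 to 0.15 for ALD3, -0.021 to 0.27 for GRE3, -0.042 to 0.10 for GRX1, -0.061 to 0.21 for HOR7, -0.48 to 0.42 for HSP12, -0.080 to 0.095 for HSP31, -0.014 to 0.89 for HXK1, -0.13 to 0.26 for MSC1, -0.13 to 0.10 for MSN4, -0.15 to 0.19 for NQM1, -0.042 to 0.20 for RTN2 and -0.051 to 0.14 for YGP1. Repeated quantile normalization gave -0.0022 for HSP31. Array weights gave -0.0053 for TRX3, -0.35 for SPI1, -0.037 for HOR7, -0.031 for GRX1, -0.081 for STF2, -0.13 for GAD1, -0.084 for HSP31, -0.11 for MSC1 and -0.0019 for OM45. Against wild-type replicates 2 and 4 alone, SPI1 was at -0.14, HOR7 at -0.094, MSC1 at -0.18 and PAI3 at 0.0025. Against replicates 1 and 3 alone, ALD3 was at -0.036, MSN4 at 0.14, HSP31 at -0.019, NQM1 at -0.099 and HSP12 at 0.39.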
